A study of Homo sapiens with 8 samples.

Results

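The genes described here are 10 that move mitochondria along microtubules or that fuse and divide them: RHOT1, RHOT2, TRAK1 and TRAK2 (motility), MFN1, MFN2 and OPA1 (fusion), and DNM1L, FIS1 and MFF (fission). They were chosen by name, as RHOT1, the gene that lncMB1 (AC116407.1) lies antisense to, with partners in the same processes. All 10 had a row among the 60668 genes listed, and all 10 were among the 15222 genes tested. The libraries came from D283-OMO cells, a stably transduced, hygromycin-selected population of D283 Med, a medulloblastoma line with high MYC, that carries a doxycycline (DOX)-inducible Flag-tagged OMOMYC. OMOMYC is a mutant MYC fragment that competes with MYC for its partners and its sites on DNA. The 4 untreated libraries carried the same transgene without induction, and the other 4 came from cells given DOX for 72 h. The libraries hold polyA+ RNA, and the effect of DOX itself and that of OMOMYC cannot be told apart, since no DOX-treated cells without OMOMYC were analysed here. Doxycycline is a tetracycline antibiotic of the kind known to slow translation in mitochondria, and whether it did so here was not tested. The study did treat wild-type D283 Med cells with DOX, for cell counts and qRT-PCR of chosen lncRNAs. It describes lncMB1 as not affected by DOX there, and reports no such values for the 10 genes.

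Mitochondria are carried along microtubules by kinesin and dynein motors. RHOT1 and RHOT2 (Miro1 and Miro2) are GTPases of the outer membrane that bind calcium, and TRAK1 and TRAK2 are the adaptors that join them to the motors. MFN1 and MFN2 fuse outer membranes and OPA1 fuses inner membranes, while the dynamin DNM1L (DRP1) is drawn to the surface by receptors such as MFF and constricts the organelle. FIS1 is a small outer membrane protein with a less central part in mammalian fission. In neurons and cells of neuronal origin these processes set where mitochondria lie and how connected they are.

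Library totals were 46592947 to 54020506 expected counts without DOX and 38390696 to 49249167 with DOX, so that even the lowest member, FIS1, was read with 662 or more counts per library. Values are given as CPM, counts per 1000000 counts of a library, after scaling with TMM, a factor that corrects for a few abundant genes taking reads from the rest. MYC targets that are often used as a check fell, with CAD at a log2 fold change of -0.48 (SE 0.045) and NCL at -0.44 (SE 0.041). MYC itself read 939 ± 75.6 CPM without and 1123 ± 56.8 CPM with DOX (SD, n = 4 each), but reads from the OMOMYC transgene cannot be separated from it. Of 8 genes listed for medulloblastoma and a photoreceptor-like programme, 6 were tested, EOMES and LMX1A being near 0. The summed level of the list was 1717 to 1831 CPM without and 626 to 636 CPM with DOX. Most of the sum came from OTX2 (1049 to 510 CPM) and IMPG2 (473 to 58.7 CPM). EYS went the other way, with a log2 fold change of 0.23 (SE 0.095), while the other tested ones fell. Of 8 markers of other brain or blood cells only COL1A1 passed the filter, and their sum was 22.3 to 23.4 CPM without and 21.9 to 25.8 CPM with DOX. Untreated replicate 3 stood apart in many members: it was the lowest untreated library for 7 of them and the highest for RHOT2, FIS1 and MFF. These 3 are the shortest when the longest basic protein-coding transcript of each gene is taken. Over all annotated exons MFN2, which was lowest in that library, is shorter than RHOT2 and MFF (4973 against 5174 and 6150 bases).

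Under DOX the motility genes fell except RHOT2, the 3 fusion genes rose, and of the fission genes only MFF changed. By edgeR's quasi-likelihood test, 8 of the 10 passed at an adjusted p below 0.05, 4 higher and 4 lower. Passing was common in this comparison, since 76.6% of all genes tested did so, 38.5% higher and 38.1% lower, so the count of members is near the background. No member met the thresholds of the study, an adjusted p below 0.001 with an absolute log2 fold change above 2, which 7.12% of all genes did. The median log2 fold change was 0.01 over the members and 0.01 over all genes, and the median absolute values were 0.37 and 0.43. The groups did not overlap in 7 members, against 71.7% of all genes. Only RHOT1 and TRAK2 passed a test against a fold change of 1.5, which 30.3% of all genes did.

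**Figure D1:**
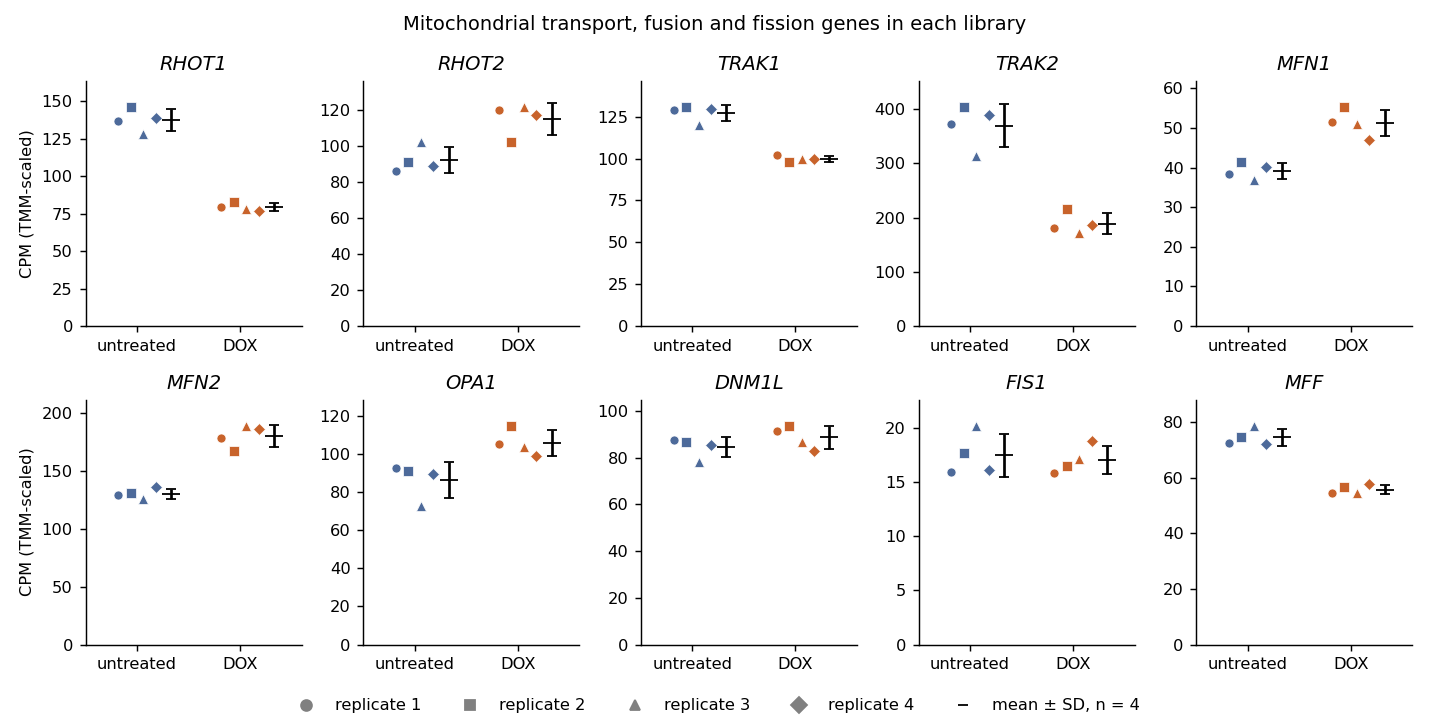
CPM of each member (linear axis from 0) in the 4 untreated and 4 DOX libraries, with the marker giving the replicate number and the bar the mean ± SD. RHOT1, TRAK1, TRAK2 and MFF lie lower in every DOX library than in any untreated one, MFN1, MFN2 and OPA1 lie higher, RHOT2 overlaps by 1 pair of libraries, and DNM1L and FIS1 overlap.

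**Figure D2:**
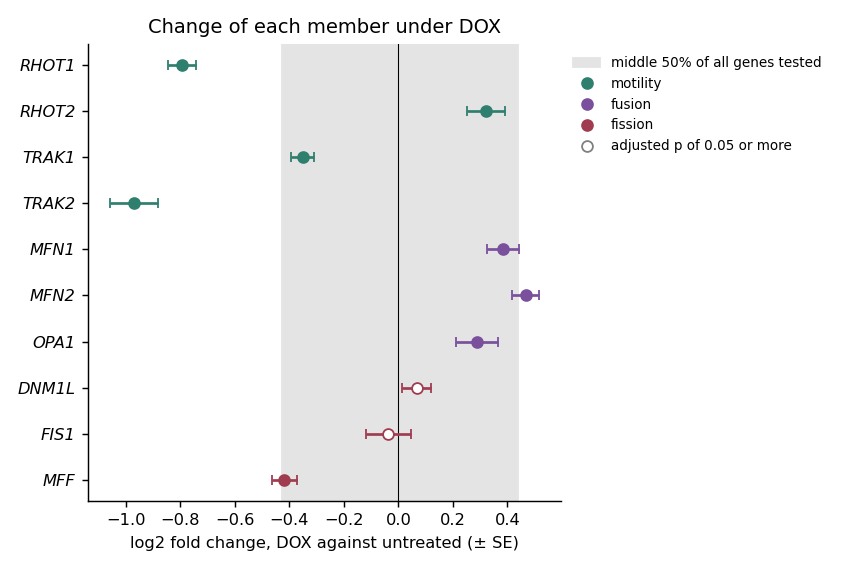
Log2 fold change of each member under DOX with its standard error, coloured by role, over a grey band that spans the middle 50% of all genes tested (-0.43 to 0.44). RHOT1 and TRAK2 lie clearly outside the band at the low side, MFN2 lies at its upper edge and MFF at its lower edge.

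RHOT1 (ENSG00000126858.18, GRCh38 chr17:32142454-32253374, plus strand) fell in every DOX library. It read 136.8, 145.9, 128.0 and 138.8 CPM in untreated replicates 1 to 4, and 79.5, 82.7, 78.1 and 76.6 CPM in DOX replicates 1 to 4. The lowest untreated library was thus well above the highest DOX library. The log2 fold change was -0.79 (SE 0.050, adjusted p = 4.2e-08), a fall of 1.73-fold, and 13.3% of all genes tested had a lower value. RHOT2 (chr16:668086-674174, plus strand), its paralog, went the other way: it read 86.0, 90.9, 102.3 and 89.1 CPM without DOX and 119.7, 101.9, 121.4 and 117.3 CPM with DOX. Untreated replicate 3 and DOX replicate 2 met at 102 CPM, and the other libraries were apart. Its log2 fold change was 0.32 (SE 0.069, adjusted p = 0.0012).

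The ratio of RHOT1 to RHOT2 counts within a library does not depend on how libraries are scaled. It was 1.25 to 1.61 in the untreated libraries and 0.644 to 0.811 in the DOX libraries, so the more frequently counted paralog changed from RHOT1 to RHOT2. The mean log2 ratio was 0.58 ± 0.17 without and -0.54 ± 0.16 with DOX (SD, n = 4 each), a difference of -1.11 (exact two-sided permutation p = 0.029, the smallest that 4 against 4 allows, 0.040 adjusted over 7 ratios). Counts rise with transcript length, so levels were also set per kb of the longest basic protein-coding transcript. On that scale RHOT1 lay at 41.7 ± 2.23 and RHOT2 at 36.3 ± 2.80 CPM per kb without DOX, with overlapping ranges, and at 24.0 ± 0.782 and 45.3 ± 3.52 CPM per kb with DOX, with no overlap. The order with DOX was the same per kb of all annotated exons, at 12.3 and 22.2 CPM per kb.

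Both adaptors fell. TRAK2 (chr2:201377207-201451579, minus strand) had the largest change of the 10, from 372, 403, 313 and 389 CPM in untreated replicates 1 to 4 to 180, 216, 171 and 187 CPM in the DOX replicates, with no overlap. Its log2 fold change was -0.97 (SE 0.088, adjusted p = 1.0e-06), a fall of 1.96-fold. TRAK1 (chr3:42013802-42225889, plus strand) fell by less, from 129.0, 130.6, 120.1 and 129.6 CPM to 102.0, 97.7, 99.8 and 99.5 CPM. These libraries were apart as well, and the log2 fold change was -0.35 (SE 0.044, adjusted p = 1.5e-05). The TRAK1 to TRAK2 ratio of counts rose from 0.346 to 0.531 (geometric means), a difference of 0.62 in log2 (exact two-sided permutation p = 0.029, 0.040 adjusted). TRAK2 was the highest member per kb in untreated cells, at 56.7 ± 6.11 CPM per kb, and no other member overlapped it. With DOX it lay at 28.96 ± 2.95 CPM per kb, below RHOT2 and MFN2. The order against RHOT2 depended on the length used. Per kb of all annotated exons TRAK2 lay at 24.8 with DOX, above RHOT2 at 22.2 and below MFN2 at 36.2 CPM per kb.

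The 3 fusion genes rose, by 1.22 to 1.38-fold. MFN2 (chr1:11980181-12013514, plus strand) read 128.8, 131.4, 125.7 and 135.9 CPM without DOX and 178.5, 167.1, 189.1 and 186.3 CPM with DOX. All DOX libraries were above all untreated ones, and its log2 fold change of 0.47 (SE 0.050, adjusted p = 4.8e-06) was the highest of the members. MFN1 (chr3:179347692-179394931, plus strand) read 38.3, 41.5, 36.9 and 40.2 CPM without and 51.5, 55.2, 51.0 and 47.0 CPM with DOX. This was a rise of 1.31-fold with no overlap (log2 fold change 0.38, SE 0.058, adjusted p = 8.0e-05). OPA1 (chr3:193593144-193697823, plus strand) read 92.6, 90.9, 72.6 and 89.6 CPM without and 105.3, 114.8, 103.7 and 98.7 CPM with DOX. The libraries were apart here too, with untreated replicate 3 far below the other untreated ones, and the log2 fold change was 0.29 (SE 0.077, adjusted p = 0.0050).

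The fusion genes were also compared with each other within libraries. The MFN1 to MFN2 ratio was 0.294 to 0.316 without and 0.253 to 0.330 with DOX (exact two-sided permutation p = 0.40, also 0.40 adjusted), and the MFN1 to OPA1 ratio was 0.413 to 0.508 without and 0.477 to 0.492 with DOX (p = 0.17 by the same exact test, 0.20 adjusted). The groups overlapped in both ratios. The differences in mean log2 ratio were -0.08 and 0.09, against SDs of 0.05 to 0.17 and of 0.02 to 0.12 within the groups. Single libraries decided both values: the first difference was -0.15 without DOX replicate 2 and the second 0.14 without untreated replicate 3, each with no overlap left and an exact permutation p of 0.029, the smallest that 3 against 4 allows. These ratios therefore do not show that the fusion genes rose alike. MFN1 was the lowest member per kb in both groups, at 7.504 ± 0.388 CPM per kb without and 9.80 ± 0.640 with DOX, well under MFN2 at 28.7 ± 0.955 and 39.7 ± 2.17.

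Among the fission genes, DNM1L (chr12:32679200-32745650, plus strand) read 87.8, 86.9, 78.3 and 85.6 CPM without and 91.5, 93.7, 86.6 and 83.0 CPM with DOX. The groups overlapped, and the log2 fold change of 0.07 (SE 0.054) had an adjusted p of 0.28, which became 0.012 with a log2 fold change of 0.19 when libraries were scaled by their totals alone. That scaling moved the median log2 fold change of all genes from 0.01 to 0.14. FIS1 (chr7:101239458-101252316, minus strand) read 15.96, 17.7, 20.2 and 16.2 CPM without and 15.9, 16.5, 17.1 and 18.8 CPM with DOX. It gave a log2 fold change of -0.04 (SE 0.083, adjusted p = 0.69), whose sign turned under other settings. MFF (chr2:227325151-227357836, plus strand), the receptor, was the 1 that changed: it read 72.6, 74.6, 78.7 and 72.3 CPM without and 54.5, 56.7, 54.4 and 57.7 CPM with DOX. The groups were far apart, at a log2 fold change of -0.42 (SE 0.045, adjusted p = 4.9e-06).

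The fission gene DNM1L was also set against the fusion gene OPA1, and the fission genes MFF and FIS1 against each other. The DNM1L to OPA1 ratio was 0.948 to 1.08 without and 0.816 to 0.869 with DOX, a difference of -0.23 in mean log2 ratio. The MFF to FIS1 ratio was 3.89 to 4.55 without and 3.06 to 3.43 with DOX, a difference of -0.38. Both gave an exact two-sided permutation p of 0.029 (0.040 adjusted over 7 ratios), with no overlap between the groups. Of the 7 ratios, 5 had no overlap, with that of AC116407.1 to RHOT1, given below, among them. Single genes had no overlap in 71.7% of all genes tested. The share over other pairs of genes was not computed, so the count of 5 is only a description.

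**Figure D3:**
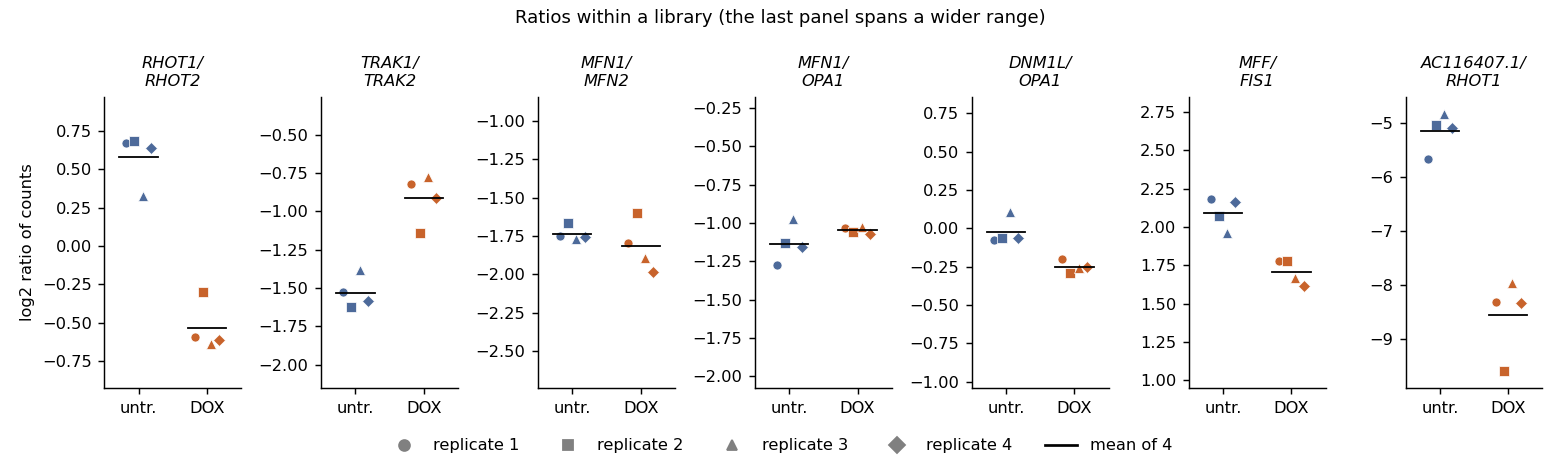
Log2 ratio of the counts of 2 genes within each library, untreated and DOX, with the mean of 4 as a line; the first 6 panels span equal ranges and the last a wider one. The RHOT1 to RHOT2 ratio falls from 0.58 to -0.54, the TRAK1 to TRAK2 ratio rises from -1.53 to -0.91, and the 2 MFN1 ratios overlap.

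The start of RHOT1 is shared with lncMB1, a long noncoding RNA transcribed from the other strand. In GENCODE 29 the exons of both cover chr17:32142454-32142713, which is 260 bases, 16.3% of the 1599 exonic bases of AC116407.1. Of these, 21 are coding bases of RHOT1, at chr17:32142693-32142713. They are shown because both RNAs hold them, in opposite senses, so a read there belongs to either gene unless its strand is used; the capitals mark the start codon of RHOT1 and its complement.
RHOT1, plus strand: ATGaagaaagacgtgcggatc
AC116407.1, minus strand: gatccgcacgtctttcttCAT

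AC116407.1 read 2.71, 4.42, 4.51 and 4.07 CPM in untreated replicates 1 to 4 (133 to 228 counts) and 0.251, 0.107, 0.315 and 0.237 CPM in the DOX replicates (4 to 16 counts). The groups were far apart, and the log2 fold change was -4.06 (SE 0.25, adjusted p = 3.9e-08). It passed the filter of more than 1 CPM in at least 4 libraries through the untreated libraries alone, so the filter itself bears on this direction. The study also chose lncMB1 from these same libraries, among lncRNAs with a strong fall under DOX. Its fall, its p-values and its ratio to RHOT1 are therefore not independent of that choice. Without any filter the log2 fold change was -4.08. Its counts were 1.98 to 3.52% of those of RHOT1 without and 0.129 to 0.403% with DOX, so they were few beside those of RHOT1 in every library. The log2 ratio of AC116407.1 to RHOT1 fell from -5.16 ± 0.35 to -8.55 ± 0.72 (SD, n = 4 each; exact two-sided permutation p = 0.029, 0.040 adjusted). RHOT1 counts were not whole numbers in any library, since RSEM divides reads that match several genes. The 3 pseudogenes RHOT1P1, RHOT1P2 and RHOT1P3 each had at most 0.0977 CPM in any library. The study also knocked lncMB1 down in part, in D283-OMO cells without DOX. It reports that RHOT1 mRNA did not change significantly by qRT-PCR, while RHOT1 protein decreased. Whether the falls of AC116407.1 and RHOT1 under DOX are linked was not tested here.

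Other members also share exonic bases with a gene on the opposite strand, and whether the counting used strand is not given in the sources used here. TRAK2 shares 144 bases with STRADB, an adaptor of the kinase LKB1, which fell too, from 53.6 ± 2.49 to 35.6 ± 0.715 CPM (log2 fold change -0.59, SE 0.046, adjusted p = 2.8e-07) and held 13.5 to 20.6% as many counts as TRAK2. MFF shares 48 bases with MFF-DT, which had 1.89 ± 0.246 CPM without and 1.23 ± 0.160 CPM with DOX (log2 fold change -0.62, SE 0.14). DNM1L shares 202 bases with ENSG00000275854, at about 1 CPM in both groups, and OPA1 shares 208 bases with OPA1-AS1, which had 1 count at most. What part these reads had in the values of the members was not tested.

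Around RHOT1 on chromosome 17, no protein-coding gene passed as higher. Of 9 protein-coding genes that start within 500 kb of the start of RHOT1, all were tested, 7 were lower and none was higher, where 76.6% of all genes passed and 38.1% were lower. The largest change was in RHBDL3, a rhomboid family gene that starts 124 kb downstream and went from 98.1 ± 1.78 to 8.59 ± 0.494 CPM (log2 fold change -3.51, SE 0.053, adjusted p = 3.5e-13). CDK5R1, the p35 activator of CDK5, followed at -0.70 (SE 0.048), then ZNF207 at -0.50 (SE 0.047), LRRC37B at -0.44 (SE 0.045), COPRS at -0.34 (SE 0.076), UTP6 at -0.33 (SE 0.041) and PSMD11, a proteasome subunit, at -0.11 (SE 0.038). SUZ12, a Polycomb subunit, and C17orf75 did not pass, at -0.01 (SE 0.066) and 0.02 (SE 0.046).

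**Figure D4:**
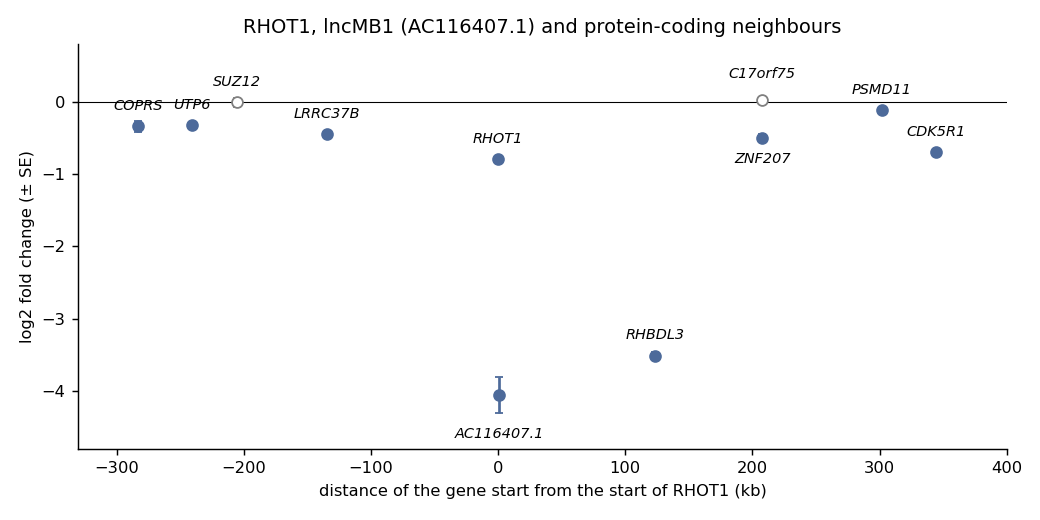
Log2 fold change under DOX (± SE) of RHOT1, AC116407.1 and the 9 protein-coding neighbours, by the distance of each gene start from that of RHOT1 in kb; open points did not pass. RHOT1 at -0.79 lies just below 8 of the neighbours, which range from -0.70 to 0.02, while AC116407.1 at -4.06 and RHBDL3 at -3.51 lie far below it.

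The genes whose pattern over the 8 libraries was most like RHOT1 were KCTD20, CDC7 and CAPRIN1, at a root mean square distance of 0.023 to 0.026 in centred log2 CPM. CDC7 is a kinase that starts DNA replication and CAPRIN1 an RNA-binding protein. Their log2 fold changes were -0.76 (SE 0.052), -0.78 (SE 0.051) and -0.83 (SE 0.047). Among the members, TRAK2 was nearest to RHOT1, at 0.12, with 648 genes nearer, and MFN2 was farthest, at 0.63.

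Promoter sequences were looked at for E-boxes, the sites that MYC binds, in windows from RefSeq (GRCh38.p14) that run from 250 bases before to 50 bases after a gene start. Of the 10 members, 9 had an entry, with 14 windows, and RHOT1 had none. None of the 14 windows held CACGTG, which reads the same on both strands, against 7.26% of all 35116 windows. With so few windows at that share, finding none does not show that the members lack E-boxes more than other genes. The TRAK1 windows begin at chr3:42086950 or later, inside the gene, so its first annotated start at chr3:42013802 was not searched. The FIS1 window, with upstream bases at chr7:101245082-101245331 on the minus strand, also lies inside the gene. Its first annotated start at chr7:101252316 was therefore not searched either. A further 2 motifs common in promoters of mitochondrial genes were searched on both strands after the sequences had been seen. CCGGAAGT, the core that ETS factors bind, was in windows of RHOT2, MFN1 and FIS1, against 4.95% of all genes with an entry, and GCGCATGC, of the kind NRF1 binds, was in that of OPA1, against 3.68% of all genes. These do not overlap each other. Since the motifs were picked with the sequences in view, the shares cannot show that members hold them more often than other genes. The 250 bases before the start are shown for the 4 members that rose and for TRAK2, which fell most; capitals mark the motifs.
RHOT2, chr16:667882-668131, plus strand: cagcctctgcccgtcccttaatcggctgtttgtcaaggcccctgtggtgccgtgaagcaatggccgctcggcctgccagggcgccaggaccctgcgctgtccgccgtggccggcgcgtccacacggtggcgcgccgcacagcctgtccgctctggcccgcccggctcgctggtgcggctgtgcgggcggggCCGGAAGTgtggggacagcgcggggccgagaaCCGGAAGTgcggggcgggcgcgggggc
MFN1, chr3:179347459-179347708, plus strand: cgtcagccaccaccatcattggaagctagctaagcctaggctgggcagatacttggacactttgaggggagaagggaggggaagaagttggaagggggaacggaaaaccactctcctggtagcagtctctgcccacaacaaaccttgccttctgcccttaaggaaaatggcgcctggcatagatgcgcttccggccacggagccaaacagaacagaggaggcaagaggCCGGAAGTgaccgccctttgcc
MFN2, chr1:11980194-11980443, plus strand: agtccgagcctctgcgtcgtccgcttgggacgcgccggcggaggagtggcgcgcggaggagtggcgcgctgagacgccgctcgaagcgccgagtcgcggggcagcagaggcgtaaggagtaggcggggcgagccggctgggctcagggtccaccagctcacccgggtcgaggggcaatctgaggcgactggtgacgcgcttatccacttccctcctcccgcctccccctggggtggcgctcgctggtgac
OPA1, chr3:193592958-193593207, plus strand: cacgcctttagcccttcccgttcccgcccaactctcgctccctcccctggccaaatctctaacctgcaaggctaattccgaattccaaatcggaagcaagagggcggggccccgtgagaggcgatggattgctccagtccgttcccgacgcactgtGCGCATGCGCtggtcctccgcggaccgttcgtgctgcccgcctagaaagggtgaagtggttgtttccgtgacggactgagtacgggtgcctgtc
TRAK2, chr2:201451459-201451708, minus strand: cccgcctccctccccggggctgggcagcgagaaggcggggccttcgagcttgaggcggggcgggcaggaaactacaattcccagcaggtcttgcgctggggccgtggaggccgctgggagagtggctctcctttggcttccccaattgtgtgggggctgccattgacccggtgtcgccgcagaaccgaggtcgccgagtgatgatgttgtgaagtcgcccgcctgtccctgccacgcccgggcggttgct
RHOT2 holds CCGGAAGT at 2 places and MFN1 at 1, in the part nearest the start. In OPA1 the capitals cover GCGCATGC and, overlapping it, the same motif on the other strand. MFN2, the member that rose most, held none of the 3 motifs, like TRAK2. FIS1, which held CCGGAAGT too, did not pass.

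Wider lists of genes with related functions held 80 genes, of which 79 were tested and SNPH, the axonal docking protein, was too low. Of the 79, 30 were higher and 26 lower, 70.9% in all against 76.6% of all genes, with a median log2 fold change of 0.01. Scaled by library totals alone, the medians of the lists of motors, MICOS and mitophagy genes given next turned from below 0 to 0.06, 0.09 and 0.06. Among 20 motors, linkers and anchors, 7 were higher and 8 lower, 75% in all, with a median of -0.06. FEZ1, a kinesin adaptor, rose from 22.8 ± 1.20 to 63.8 ± 2.003 CPM (log2 fold change 1.49, SE 0.051), and MTX2, an outer membrane import protein, rose from 25.9 ± 1.54 to 44.9 ± 0.967 CPM (0.79, SE 0.051). KIF5A, a neuronal form of the kinesin-1 heavy chain to which TRAK proteins bind, fell from 93.4 ± 8.28 to 37.9 ± 1.19 CPM (-1.30, SE 0.064). DISC1, a scaffold that binds Miro and TRAK proteins, fell from 301.8 ± 26.5 to 154.6 ± 5.69 CPM (-0.96, SE 0.064). KIF5B and KIF5C, the other heavy chains, did not pass, at 0.06 (SE 0.079) and -0.10 (SE 0.17); these 2 were named after their values were seen.

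Of 14 fission adaptors and regulators, 5 were higher and 4 lower, 64.3% in all against 76.6% of all genes. Their median log2 fold change was 0.03. MTFR1L rose by 0.65 (SE 0.046) and SPIRE1, an actin nucleator, by 0.44 (SE 0.065) on the log2 scale, while MTFR2 fell by 1.06 (SE 0.15) and MTFP1, an inner membrane fission protein, fell by 0.80 (SE 0.088). Of 12 fusion regulators and proteins that process OPA1, 6 were higher and 4 lower, 83.3% in all, with a median of 0.12. MIGA2 rose by 0.35 (SE 0.077) and OMA1, the stress-activated protease that cleaves OPA1, by 0.25 (SE 0.061), while PLD6, an outer membrane phospholipase, fell by 0.79 (SE 0.063) and MSTO1 fell by 0.36 (SE 0.052). The fusion regulators thus moved in both directions, unlike MFN1, MFN2 and OPA1, though this difference was not tested.

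The list for the MICOS complex, which shapes cristae, also held its partners SAMM50 and DNAJC11. Most of the 9 genes did not pass: 1 was higher and 2 were lower, 33.3% in all against 76.6% of all genes. The median log2 fold change was -0.04. IMMT (mitofilin), the core of the complex, fell from 130.8 ± 8.79 to 97.7 ± 1.22 CPM (log2 fold change -0.42, SE 0.052). CHCHD3 fell from 71.4 ± 3.10 to 52.9 ± 1.21 CPM (-0.43, SE 0.045), while APOOL rose from 24.5 ± 1.27 to 33.8 ± 2.42 CPM (0.46, SE 0.062). Without untreated replicate 3 or without DOX replicate 2 the number higher was 2, and without untreated replicate 1 the number lower was 4. The median turned to 0.04 without DOX replicate 2 and was -0.11 without untreated replicate 1.

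Of 15 mitophagy genes, 6 were higher and 7 lower, 86.7% in all against 76.6% of all genes, with a median log2 fold change of -0.07. TBK1, the kinase that activates mitophagy receptors, rose by 0.78 (SE 0.068) and FBXL4 by 0.73 (SE 0.078) on the log2 scale, whereas the receptors TAX1BP1 and CALCOCO2 fell by 0.97 (SE 0.050) and 0.61 (SE 0.048). Of 9 genes for contacts of the outer membrane, 5 were higher and 1 was lower, 66.7% in all, with a median of 0.16. SYNJ2BP rose by 0.60 (SE 0.083) and VPS13D, a lipid transfer protein, by 0.45 (SE 0.10), while VAPB, a tether in the endoplasmic reticulum, fell by 0.26 (SE 0.053). Without untreated replicate 1 the number lower was 2.

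**Figure D5:**
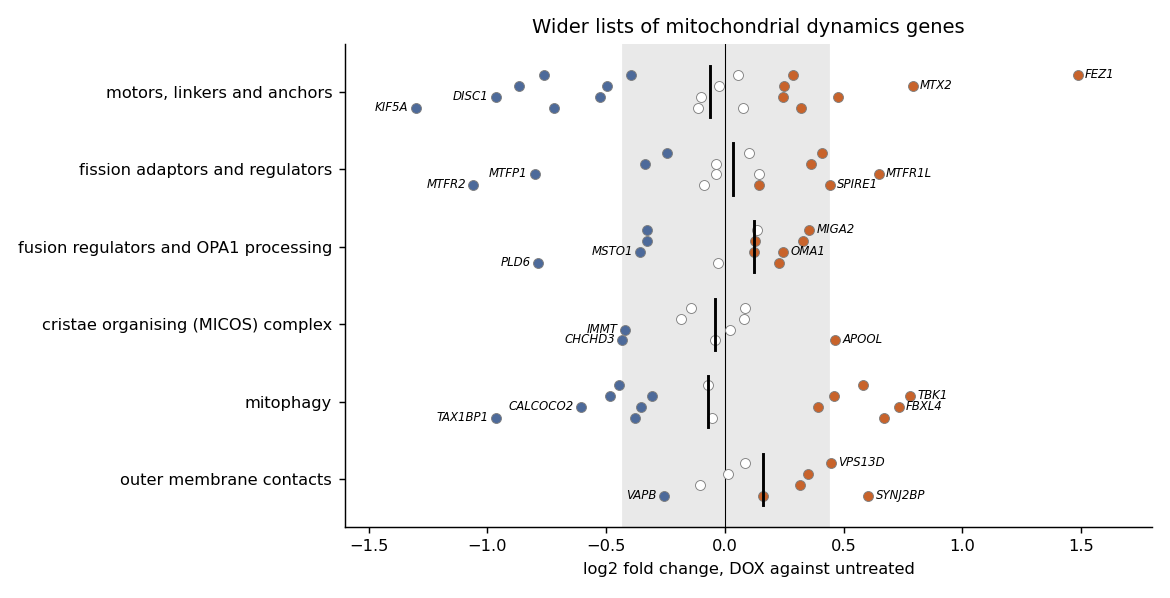
Log2 fold change under DOX of the 79 genes tested in 6 lists; each point is a gene, filled orange where higher, filled blue where lower and open where it did not pass, the black line is the median of the list and the grey band the middle 50% of all genes. Medians lie between -0.07 and 0.16, with FEZ1 at 1.49 and KIF5A at -1.30 at the ends.

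The mitochondrial genome took a larger share of the library totals with DOX. Its genes, as far as polyA+ libraries capture them, took 4.73 to 5.13% of all counts without and 5.70 to 5.95% with DOX (4.84 ± 0.19 and 5.80 ± 0.11%, SD, n = 4 each; exact two-sided permutation p = 0.029), with no overlap. This share is of raw totals, without the TMM factors used for the members. Those were 0.938 to 0.972 without and 1.04 to 1.05 with DOX, so the rise would be smaller on the TMM scale. The part of this in the values of the members was not tested.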

How the data were processed

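PolyA+ RNA of 8 D283-OMO samples, described as independent biological replicates, was made into stranded libraries. Before deposit, the authors ran Trim Galore on the reads, STAR against GRCh38 (GENCODE 32) and RSEM for gene counts; tool versions and the strand setting are not given in the sources used here. What the authors deposited are expected counts, with a row for each gene and not normalized, which share out reads that match several genes. They were rounded to whole numbers. Genes above 1 CPM in at least 4 of 8 libraries were tested with edgeR 4.0.16 (R 4.3.3; TMM, quasi-likelihood test, Benjamini-Hochberg over all genes tested), and a gene passed at an adjusted p below 0.05. Scripts were tested on simulated data. Far fewer genes were changed there than passed here, so that check does not bear on the choice of scaling. Each alternative changed 1 choice: DESeq2 1.42.0 size factors or Wald test, totals only, likelihood ratio test, other filters, a replicate block, and each library left out.

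Group membership came from the sample titles and treatment labels. Ratios used an exact two-sided permutation test over the 70 divisions of 8 libraries. Members and lists were chosen with earlier results of these data known. Beside the members and AC116407.1, the genes named were, per list, the 2 largest rises and falls that passed with no overlap, protein-coding genes starting within 500 kb of RHOT1, the 3 genes nearest to RHOT1, the checks of MYC inhibition, and genes sharing exonic bases with a member. Coordinates are from GENCODE 29 (GRCh38), promoter windows from RefSeq; protein sequences were not used here. A value of 1 CPM before scaling is 38.4 to 54.0 counts.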

Additional observations from a re-analysis of the deposited data

Results flagged for a closer look

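Over 84 groups of 4 libraries (42 genes), 3 had a library whose gap to the nearest other exceeded Dixon's 95% limit, where chance alone flags about 1 in 20. All 3 were in untreated replicate 3. TRAK1 read 120.1 CPM there against 129.0 to 130.6 CPM in the other untreated libraries, OPA1 read 72.6 CPM against 89.6 to 92.6 CPM, and COPRS, a neighbour of RHOT1, read 53.6 CPM against 43.9 to 45.1 CPM. Without that library 8 of the 10 members passed, as with it.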

How the results depend on the processing

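With DESeq2 size factors or its Wald test, the likelihood ratio test, a stricter filter or none, and without each library in turn, 4 members were higher and 4 lower, as they were at an adjusted p below 0.01. With library totals only, 9 members passed, DNM1L among them. Against a fold change of 1.5, 0 members were higher and 2 lower. Over all alternatives the log2 fold change of RHOT1 ran from -0.84 to -0.67, that of TRAK2 from -1.06 to -0.85, that of OPA1 from 0.20 to 0.41, and that of FIS1 from -0.10 to 0.09. That of AC116407.1 ran from -4.25 to -3.82 where it was tested: the filter on more than 4 libraries removed it, and so did leaving out an untreated library, for which fits were added that kept the genes tested, a choice made after seeing the data. With library totals only, the MICOS list had 3 genes higher and the contact list 0 lower, which goes with the shift of all genes by that scaling. Leaving out 1 library at a time gave 1 to 2 higher and 2 to 4 lower genes in the MICOS list and 1 to 2 lower in the contact list, a difference of -0.15 to -0.025 in the MFN1 to MFN2 ratio and one of 0.043 to 0.14 in the MFN1 to OPA1 ratio.

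Replicate numbers gave no clear pairing of the samples. Deviations of samples with the same number correlated at -0.18 to 0.24 (mean 0.09, 4 pairs). The other 12 combinations correlated at -0.29 to 0.35 (mean -0.03). So few pairs cannot exclude a pairing. With the replicate block, 8 members passed, 4 higher and 4 lower. The exact sign-flip test of the ratios under this pairing cannot go below p = 0.125, and gave that value for RHOT1 to RHOT2 (-1.11), TRAK1 to TRAK2 (0.62), DNM1L to OPA1 (-0.23), MFF to FIS1 (-0.38) and AC116407.1 to RHOT1 (-3.39). The depth of 4 to 16 counts in the DOX libraries limits AC116407.1.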
